A study of Mus musculus with 27 samples.

Results

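Untreated E14Tg2a mouse embryonic stem cells were compared after 24 h of the experiment with the same line at its start, to describe how gene expression moved in culture without peroxide. The 3 libraries of untreated cells at 24 h and the 3 of untreated cells at 0 h were taken by their labels from a series of 27 libraries, the other 21 being cells exposed to hydrogen peroxide (H2O2). E14Tg2a is an established line, and the sample titles name no added genetic change. All cells grew on gelatin in serum medium to which LIF and the 2i inhibitors had been added, a mix that keeps stem cells in the naive pluripotent state. The treated groups received 500 µM H2O2 for 30 min and then spent medium from untreated cells. They are used here for the spread between replicates and for levels side by side. Each group holds 3 biological replicates from 3 independent time courses. The labels do not say whether the untreated cells had a change of medium, how dense they were at 24 h, or whether they were passaged, so time and these conditions cannot be told apart.

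Some background helps in reading the genes that changed. Glycolysis breaks glucose down to pyruvate, and lactate dehydrogenase turns pyruvate into lactate, which monocarboxylate transporters carry out of the cell. When oxygen is short, the hypoxia-inducible factors (HIF) raise many glycolytic genes and others such as Bnip3 and Vegfa by binding DNA with the core letters ACGTG. Nodal is a secreted signal of the TGF-beta family that embryonic stem cells make themselves. Its targets Lefty1 and Lefty2 are secreted inhibitors that hold it in check. Ccn1 and Ccn2 code for matricellular proteins and are standard targets of YAP, a cofactor that responds to cell shape, adhesion and density.

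The deposited unit is FPKM, a fragment number corrected for transcript length and for the size of the library, so levels can be compared between genes while absolute depth is unknown. Of 38352 genes in the files, 12056 reached 1 FPKM in at least 3 of the 6 untreated libraries and were tested with limma on log2(FPKM + 1), where the added 1 shrinks differences of genes at low levels. A gene was called changed at a Benjamini-Hochberg adjusted p below 0.05 over all 12056 genes, and the differences below are 24 h minus 0 h on that scale, with the standard error (SE) where given.

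Between 24 h and 0 h 96 genes changed, 0.796% of those tested, with 56 higher (0.464%) and 40 lower (0.332%) in untreated cells at 24 h. Genes of glycolysis and lactate export, the Nodal inhibitors Lefty1 and Lefty2 and the mitophagy gene Bnip3 were among the rises. Ccn1, Fgfbp1, Nqo1 and Tgm1 were among the falls. In all 96 genes the 24 h and 0 h libraries did not overlap, as was so for 8.9% of all tested genes (5.94% with 24 h higher and 2.96% with 24 h lower). Most changes were small. The median size was 0.43 against a median SE of 0.13 over all genes, and 34 of the 56 rises and 33 of the 40 falls were under 0.5. Mean FPKM differed by at least 2-fold in 13 of the rises and 2 of the falls, Ccn1 and Sec1. Of those 13 rises, 9 genes were below 1 FPKM in every 0 h library and passed the filter through their 24 h levels, so they could enter only as rises. The same held the other way for Sec1, at 0.63, 0.717 and 0.644 FPKM at 24 h.

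The count of changed genes depended on single libraries. Without untreated 24 h replicate 1, 2 or 3 in turn it was 46, 44 and 38, and without untreated 0 h replicate 1 or 2 it was 76 and 63. With the spread taken from the 6 untreated libraries alone 9 genes passed, all higher and 5 of them among the 96, and 1155 genes had an unadjusted p below 0.05 in the fit with all libraries. Fits that left out each of the 6 libraries in turn still took the spread from the treated libraries as well. A set of 24 genes, 12 higher and 12 lower, passed in all 6 of these fits. None of the 12 falls passed with the spread from the 6 untreated libraries alone. The 24 genes include Lefty1, Lefty2, Ldha, Pgk1, Pkm, Pgam1, Slc16a3, Bnip3, Ccn1, Fgfbp1, Nqo1, Tgm1, Perp, Steap3 and Snhg1. Every other changed gene named below lost the call in at least 1 of the fits that left out a library. Grn and Pfkl lost it without untreated 24 h replicate 1 and Zcwpw1 without untreated 24 h replicate 3. The call was lost without any of 2 libraries for Herpud1 and mt-Rnr2, without any of 3 for Slc2a1, Ddit4, Fzd10, Nfe2l2, Lamp1 and Fbln1, without any of 4 for Aldoc, Bhlhe40, Trh, Sertad3, Hmox1, Phlda1, Nefl, Mael, Glrx and Apoc3, and without any of 5 for Tpi1, Elf3, Nefm, Rsrp1 and the other hepatocyte genes. None of these genes changed direction under the alternatives. With libraries scaled by the median of ratios the split was 45 higher and 63 lower.

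Untreated 0 h replicate 3 stood apart from the other libraries of its group. Its FPKM summed to 395760, against 311380 and 313590 in untreated 0 h replicates 1 and 2, and ribosomal protein mRNAs lay 0.90 above the mean of those 2 libraries on the log2 scale. Against the same mean its expression increased by 0.38 per 10 points of transcript GC content, a measure that was 0.19, 0.026 and 0.12 in untreated 24 h replicates 1, 2 and 3. The 6 libraries were of similar relative depth, between 1.00 and 1.10 on a scale where untreated 0 h replicate 1 is 1, and 11516 to 12078 genes in them reached 1 FPKM. Without this library 205 genes changed (1.7%), 79 higher (0.655%) and 126 lower (1.05%), and the median difference of all tested genes was −0.02, beside 0.02 with it. Without it and 3 treated libraries that also stood apart, which enter only the spread, 4044 changed (33.5%), 1630 higher and 2414 lower, and these include all 96. The GC content of the changed genes had a median of 53.1% in the rises and 49.96% in the falls, beside 49.7% over all tested genes.

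**Figure D1:**
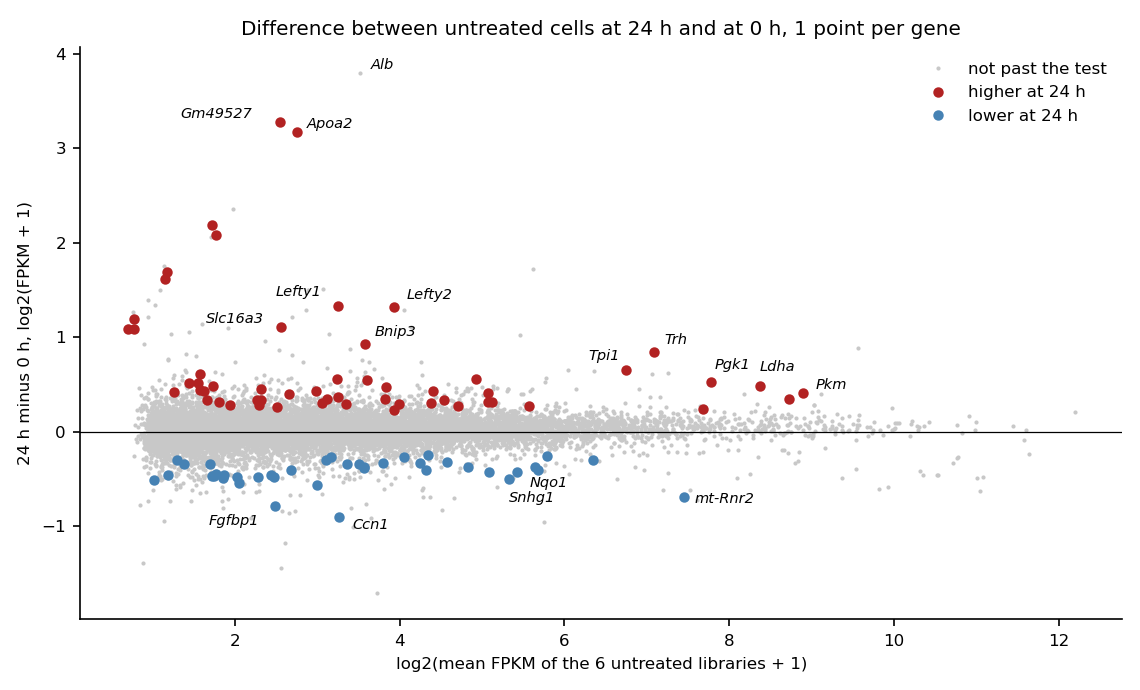
Difference between untreated cells at 24 h and at 0 h in log2(FPKM + 1) against the mean level of the 6 libraries, 1 point per tested gene. Red points are the 56 genes higher and blue points the 40 genes lower at 24 h, and the 12 that moved by 1 or more on this scale are rises, 9 of them below 1 FPKM in every 0 h library.

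Glycolysis held the clearest group of rises. Of 23 listed genes 21 were tested, and 9 were higher and 0 lower at 24 h, against 0.464% higher and 0.332% lower over all genes. The median difference of the list was 0.29, beside 0.02 over all tested genes. Without untreated 0 h replicate 3 the list median was 0.25. In RNA from whole cultures, a change in all cells and a change in a part of them cannot be told apart. The changed members run along the pathway from the glucose carrier Slc2a1 through the enzymes Pfkl, Aldoc, Tpi1, Pgk1, Pgam1, Pkm and Ldha to the lactate exporter Slc16a3, and 5 of the 9 (Ldha, Pgk1, Pkm, Pgam1 and Slc16a3) passed with each library left out in turn.

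Promoters of 3 of these genes and of Bnip3, described below, are shown because they are among the firmest rises and the HIF core letters occur in them. For each gene the 250 bases before the RefSeq start nearest to the gene's outermost GENCODE start are given 5′ to 3′ on the gene's strand, from RefSeq on GRCm38.p6, with every ACGTG and its reverse complement CACGT in capitals. CACGTG, also a binding sequence of Myc and of clock factors, is a palindrome and matches on both strands.
Ldha (chr7:46845554-46845803, plus strand): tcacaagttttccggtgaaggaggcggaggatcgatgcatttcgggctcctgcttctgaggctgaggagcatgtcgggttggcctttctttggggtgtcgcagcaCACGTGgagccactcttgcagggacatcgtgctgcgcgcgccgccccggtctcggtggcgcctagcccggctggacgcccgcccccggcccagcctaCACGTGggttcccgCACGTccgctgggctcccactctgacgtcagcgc
Pgk1 (chrX:106186850-106187099, plus strand): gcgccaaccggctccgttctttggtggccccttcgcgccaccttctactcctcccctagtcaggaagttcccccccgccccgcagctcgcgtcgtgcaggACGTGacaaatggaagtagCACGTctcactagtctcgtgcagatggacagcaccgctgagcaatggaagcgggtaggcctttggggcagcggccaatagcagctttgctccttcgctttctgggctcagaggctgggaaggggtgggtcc
Slc16a3 (chr11:120948817-120949066, plus strand): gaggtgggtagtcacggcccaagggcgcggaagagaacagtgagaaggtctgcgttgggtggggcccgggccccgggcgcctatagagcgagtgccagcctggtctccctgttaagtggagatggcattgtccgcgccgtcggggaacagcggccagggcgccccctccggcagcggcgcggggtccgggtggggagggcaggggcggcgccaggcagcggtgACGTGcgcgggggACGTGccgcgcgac
Bnip3 (chr7:138909507-138909756, minus strand): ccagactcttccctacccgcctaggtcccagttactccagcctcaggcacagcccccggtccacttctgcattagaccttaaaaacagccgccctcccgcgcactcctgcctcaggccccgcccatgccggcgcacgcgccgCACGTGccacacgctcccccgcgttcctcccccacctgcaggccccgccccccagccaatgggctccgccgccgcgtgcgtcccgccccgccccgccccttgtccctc

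The Ldha window holds 5 matches on the 2 strands, with 2 copies of CACGTG, and its RefSeq start lies 4329 bases inside the outermost annotated start. Bnip3 has 1 CACGTG. Pgk1 and Slc16a3 have 2 matches each and 0 copies of CACGTG. Of the 20 tested glycolysis genes with a window in the RefSeq table, 9 (45.0%) hold at least 1 match, beside 1934 of the 8486 tested genes with a window (22.8%). The windows shown were picked in part for holding the letters, so matches in them are no finding. The list was not matched to all genes for base composition of the windows, and enrichment was not tested. The matches describe letters and say nothing about binding in these cells.

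Ldha, the subunit of lactate dehydrogenase that favors lactate formation (ENSMUSG00000063229, chromosome 7, 46841475 to 46855627 on GRCm38 in GENCODE M21), had 386, 383 and 389 FPKM at 24 h, against 268, 274 and 283 FPKM at 0 h. All 3 libraries at 24 h lay far above all 3 at 0 h, a difference of 0.49 (SE 0.055, limma adjusted p = 7.10e-05).
Slc16a3, the monocarboxylate transporter MCT4 that exports lactate (chromosome 11, 120948480 to 120960868), stood at 6.52, 6.35 and 8.24 FPKM at 24 h and at 2.45, 2.45 and 3.31 FPKM at 0 h. Its difference of 1.10 (SE 0.13, limma adjusted p = 0.000106) was the largest of the list.
Pgk1, phosphoglycerate kinase (chromosome X, 106187100 to 106203699), had 246, 262 and 266 FPKM at 24 h, against 185, 184 and 166 FPKM at 0 h. The rise was 0.53 (SE 0.066, limma adjusted p = 0.000128), and the highest 0 h library lay well below the lowest 24 h library.

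The other changed members rose by less or varied more. Pkm, pyruvate kinase, had 580, 541 and 511 FPKM at 24 h and 426, 439 and 364 FPKM at 0 h, a rise of 0.41, and Pgam1, phosphoglycerate mutase, rose by 0.34. Pfkl, the liver-type subunit of phosphofructokinase, rose by 0.43, and Slc2a1, the glucose carrier GLUT1, by 0.27. Tpi1, triose phosphate isomerase, had 128, 121 and 140 FPKM at 24 h, against 68.1, 72.0 and 112 FPKM at 0 h, a rise of 0.65 (limma adjusted p = 0.0343). The highest 0 h library of Tpi1 was untreated 0 h replicate 3.

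Several members did not pass. Aldoa, the main aldolase here, had 633, 574 and 677 FPKM at 24 h and 409, 439 and 597 FPKM at 0 h (difference 0.40, limma adjusted p = 0.228), with the groups overlapping through untreated 0 h replicate 3. Gapdh varied between libraries of the same group, at 76.0, 95.2 and 28.5 FPKM at 24 h and 113, 58.6 and 46.6 FPKM at 0 h. The glycolytic enzymes Ldha, Pgk1, Pgam1, Tpi1 and Gapdh have processed pseudogenes in the mouse genome, and the sources used here do not say how reads shared with such copies were counted.

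**Figure D2:**
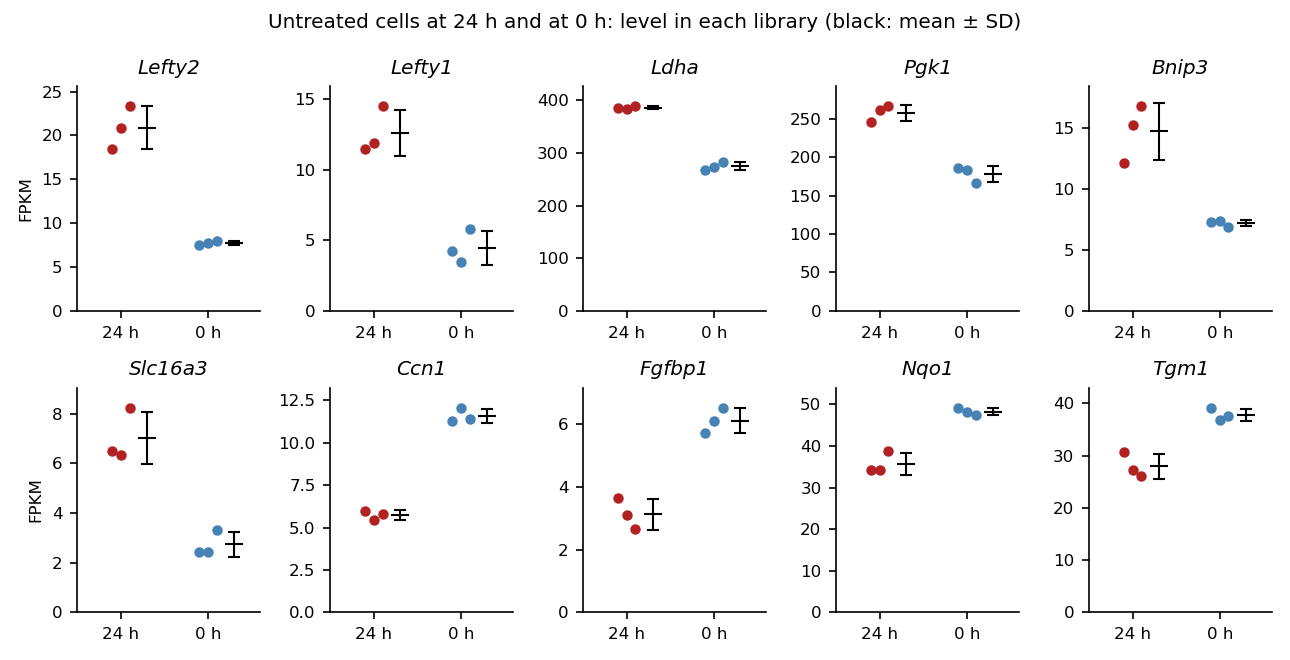
FPKM of 10 changed genes in each untreated library at 24 h (red) and at 0 h (blue), with the mean and SD in black. In each panel the 3 libraries of the 24 h group lie on one side of the 3 of the 0 h group, above for the first 6 genes and below for Ccn1, Fgfbp1, Nqo1 and Tgm1.

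Among HIF targets outside glycolysis 2 of 19 tested genes were higher and 0 lower, beside 0.464% and 0.332% over all genes. Bnip3, which marks mitochondria for removal by autophagy (ENSMUSG00000078566, chromosome 7, 138890836 to 138909519), had 12.1, 15.2 and 16.7 FPKM at 24 h, against 7.32, 7.32 and 6.91 FPKM at 0 h. Its rise was 0.93 (SE 0.12, limma adjusted p = 0.000128) and the groups lay far apart. Ddit4, the mTOR inhibitor REDD1, had 22.9, 22.7 and 20.7 FPKM at 24 h and 17.4, 18.7 and 17.2 FPKM at 0 h, a rise of 0.30 (limma adjusted p = 0.0302). It is also the 1 member that changed of 25 tested genes of the ATF4 and amino acid response.
Of the 19 tested HIF targets 19 had a difference above 0, with a median of 0.19, and in 10 of them the groups did not overlap, beside 5.94% over all genes. Vegfa, the vascular growth factor, was at 3.89, 4.46 and 4.45 FPKM at 24 h, against 2.99, 3.71 and 2.88 FPKM at 0 h, and did not pass (difference 0.33, limma adjusted p = 0.269). Ak4, Fam162a, Higd1a, Plod2 and Kdm3a overlapped between the groups.

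Lefty1 and Lefty2 had the largest rises among changed genes that were above 1 FPKM in all 0 h libraries. Lefty2 (ENSMUSG00000066652, chromosome 1, 180893108 to 180899103) had 18.4, 20.9 and 23.3 FPKM at 24 h, against 7.51, 7.70 and 8.01 FPKM at 0 h. The difference was 1.32 (SE 0.10, limma adjusted p = 2.98e-07), with the smallest p of all genes. Lefty1 (chromosome 1, 180935022 to 180938400) had 11.4, 11.9 and 14.5 FPKM at 24 h and 4.21, 3.43 and 5.79 FPKM at 0 h, a difference of 1.33 (SE 0.16, limma adjusted p = 0.000106). Both groups were well separated for both genes. The 2 genes are neighbors of similar sequence, so reads could be shared between them by the counting.

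The rest of the Nodal pathway did not pass. Of 11 tested members 2 were higher and 0 lower, beside 0.464% and 0.332% over all genes. The median difference was 0.10, or 0.0045 without untreated 0 h replicate 3. Nodal itself had 54.5, 49.5 and 55.2 FPKM at 24 h, against 42.7, 45.6 and 49.2 FPKM at 0 h (difference 0.21, SE 0.095, limma adjusted p = 0.478). Its groups did not overlap, though the highest 0 h library nearly reached the lowest 24 h library. Tdgf1, the Nodal co-receptor Cripto, had 204, 206 and 216 FPKM at 24 h and 195, 197 and 193 FPKM at 0 h (difference 0.10). Smad7, Skil, Gdf3, Acvr2b, Smad3, Ski and Furin overlapped between the groups.

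Other named rises came from several functions. Trh, the precursor of thyrotropin-releasing hormone, had 188, 146 and 183 FPKM at 24 h, against 80.9, 79.6 and 132 FPKM at 0 h, a rise of 0.84 (limma adjusted p = 0.0206). Elf3, an epithelial ETS factor, rose by 0.56, Sertad3 by 0.55, and Fzd10, a receptor for Wnt proteins, by 0.55. In Trh, Elf3 and Sertad3 the highest 0 h library was untreated 0 h replicate 3. Fbln1, a matrix glycoprotein, rose by 0.35, and Rsrp1 by 0.41.
Beside 0.464% higher and 0.332% lower over all genes, 2 of 30 lysosomal genes were higher and 0 lower, with a median of 0.12. They were Lamp1, a major protein of the lysosomal membrane, at 225, 217 and 220 FPKM at 24 h and 194, 195 and 173 FPKM at 0 h, and Grn, the progranulin gene, at 38.9, 34.4 and 35.6 FPKM at 24 h and 29.0, 28.8 and 28.8 FPKM at 0 h. Herpud1, a component of protein disposal at the endoplasmic reticulum, rose by 0.37 as 1 of 21 tested genes of its list. Bhlhe40, a transcriptional repressor that responds to hypoxia and acts in the clock, was the 1 of 12 tested clock genes to change, with 2.07, 2.30 and 2.21 FPKM at 24 h and 1.39, 1.41 and 0.946 FPKM at 0 h.

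The largest rise among the changed genes was in the unnamed gene model Gm49527 (chromosome 15, 76879320 to 76901283), at 4.08, 12.6 and 12.5 FPKM at 24 h, against 0, 0.0237 and 0.00264 FPKM at 0 h. It was chosen after its values were seen. It lies on the same strand as Commd5, which it overlaps and which averaged 6.37 ± 6.52 FPKM at 24 h and 18.1 ± 4.99 FPKM at 0 h (SD, n = 3 each), so fragments may have been assigned to either model. The Gm49527 call was lost in each of the 6 fits that left out a library.

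Ccn1 had the largest fall among the changed genes on the log2(FPKM + 1) scale. Ccn1 (ENSMUSG00000028195, chromosome 3, 145646976 to 145649981) had 5.97, 5.44 and 5.81 FPKM at 24 h, against 11.3, 12.04 and 11.4 FPKM at 0 h. It fell by 0.90 (SE 0.088, limma adjusted p = 9.17e-06), to about the same level in each 24 h library. Of the 13 tested YAP targets it was the 1 that passed, with 0 higher, and 12 of the 13 had a difference below 0 (median −0.11). Ccn2, the connective tissue growth factor, had 11.0, 9.08 and 8.82 FPKM at 24 h and 15.6, 14.4 and 10.2 FPKM at 0 h, and did not pass (difference −0.42, limma adjusted p = 0.145). In Ccn2, Amotl2, Ajuba, Tead1 and Ptpn14 untreated 0 h replicate 3 was the lowest of its group, and without that library the median of the list was −0.37.

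Fgfbp1, a secreted carrier of fibroblast growth factors (chromosome 5, 43978858 to 43981779), had 3.64, 3.10 and 2.65 FPKM at 24 h, against 5.73, 6.09 and 6.51 FPKM at 0 h. It fell by 0.79 (SE 0.096, limma adjusted p = 0.00012), and the groups lay apart. Phlda1, a feedback gene of growth factor signaling, was the 1 of 14 tested FGF and ERK feedback genes to pass, at 2.22, 2.00 and 1.96 FPKM at 24 h and 2.78, 2.82 and 4.20 FPKM at 0 h. Tgm1, a transglutaminase that cross-links proteins, fell by 0.42, with 30.7, 27.2 and 26.1 FPKM at 24 h and 39.1, 36.8 and 37.5 FPKM at 0 h.

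Nqo1, a quinone reductase and a standard target of the antioxidant factor NRF2 (chromosome 8, 107388225 to 107403206), had 34.1, 34.2 and 38.8 FPKM at 24 h, against 49.1, 48.1 and 47.5 FPKM at 0 h. It fell by 0.43 (SE 0.06, limma adjusted p = 0.000726), and all 24 h libraries lay below all 0 h libraries. Hmox1, heme oxygenase, fell by 0.30 to 76.6, 67.0 and 73.0 FPKM at 24 h, against 88.7, 87.6 and 90.9 FPKM at 0 h (limma adjusted p = 0.0298). Nfe2l2, which codes for NRF2 itself, rose by 0.27. These 3 were the changed members of 25 tested NRF2 genes, with a median difference of −0.04, or −0.11 without untreated 0 h replicate 3.
Perp, a p53 target with a role in cell adhesion, fell by 0.40 as the 1 of 29 tested p53 targets to change, at 17.5, 14.9 and 16.4 FPKM at 24 h and 21.5, 20.6 and 23.2 FPKM at 0 h. Steap3, an iron reductase, fell by 0.41, and Snhg1, a host gene of small nucleolar RNAs, fell by 0.50 to 32.6, 31.3 and 32.8 FPKM at 24 h, against 42.2, 45.9 and 50.3 FPKM at 0 h. Mael and Zcwpw1, genes known from the germ line, fell by 0.48 and 0.45. The neurofilament genes Nefm and Nefl fell by 0.57 and 0.32. They overlap on opposite strands, and the strand setting of the counting is not known from the sources used here.

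Pluripotency genes did not pass in either direction. The numbers tested were 17 core factors, 19 naive regulators and 13 formative and primed genes, of which 0 were higher and 0 lower in each list, with medians of 0.01, 0.04 and −0.03. Without untreated 0 h replicate 3 the medians were −0.03, −0.05 and −0.12, and 1 naive gene was higher and 1 formative or primed gene lower. Pou5f1 had 786, 655 and 777 FPKM at 24 h and 586, 616 and 938 FPKM at 0 h, so the 0 h group spanned the 24 h group. Nanog had 360, 392 and 391 FPKM at 24 h, against 371, 366 and 296 FPKM at 0 h (difference 0.15, limma adjusted p = 0.598). Zfp42, known as Rex1, had 416, 425 and 441 FPKM at 24 h and 410, 410 and 340 FPKM at 0 h, with no overlap (difference 0.15, limma adjusted p = 0.48). Of the 17 core factors 3 lay higher and 1 lower at 24 h with no overlap, beside 5.94% and 2.96% of all tested genes.
Sox2 and Klf2 overlapped between the groups. The lineage factors Gata6 and T and the primed-state genes Otx2 and Fgf5 stayed below 1 FPKM in all 6 libraries and were not tested. The stem cell markers of the labelled cell type were thus high in both groups. Genes of the 2-cell-like state, such as the Zscan4 cluster, had 0 of 13 changed and a median of 0.36, with a difference above 0 in all 13. In 12 of these 13 the groups overlapped, and without untreated 0 h replicate 3 the median was 0.17.

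Proliferation and growth programs also gave few calls in the fit with all libraries. None of 28 G1/S and DNA replication genes, 30 G2/M and mitosis genes or 82 ribosomal protein genes passed the limma test, with medians of 0.07, 0.06 and 0.03. Without untreated 0 h replicate 3 the medians of the G1/S and G2/M lists were −0.02 and −0.06. Cholesterol synthesis had 0 of 24 changed and a median of 0.21, which was 0.05 without untreated 0 h replicate 3. The ribosomal protein median was 0.33 without that library, and that of nuclear respiratory chain genes moved to 0.23, beside 0.00 with it. Id3, a target of BMP signals, had 21.5, 14.4 and 17.5 FPKM at 24 h and 22.8, 24.7 and 44.4 FPKM at 0 h, and did not pass (difference −0.70, limma adjusted p = 0.183). Txnip, a glucose-responsive arrestin, was at 46.5, 48.5 and 44.0 FPKM at 24 h and 68.6, 63.4 and 48.0 FPKM at 0 h (difference −0.35, limma adjusted p = 0.149).

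None of the 13 mRNAs of the mitochondrial genome passed the limma test. They had a median of −0.45 and a difference below 0 in all 13, and the groups overlapped in 12 of them. The exception, mt-Nd1, a subunit of complex I, did not pass (difference −0.63, limma adjusted p = 0.107). Of 19 tested mitochondrial tRNAs and rRNAs 1 changed. It was mt-Rnr2, the large ribosomal RNA, which fell by 0.69 to 111, 126 and 164 FPKM at 24 h, against 197, 206 and 239 FPKM at 0 h (limma adjusted p = 0.0174). Untreated 0 h replicate 3 was the highest library of its group for most of these mRNAs, and without it the median of the mRNAs was −0.18. Mitochondrial RNAs carry short poly(A) tails or none, and these libraries were made from poly(A) RNA.

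**Figure D3:**
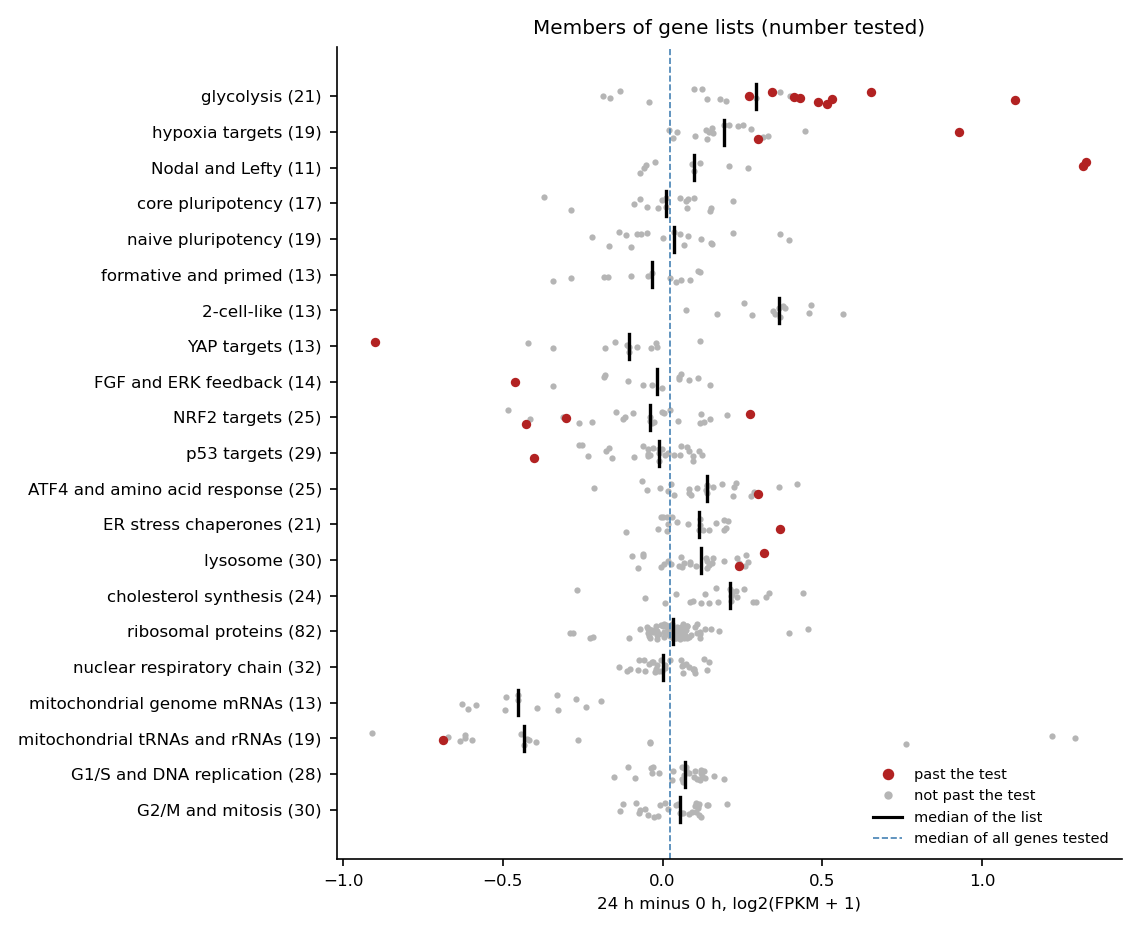
Differences between untreated cells at 24 h and at 0 h in log2(FPKM + 1) for the tested members of 21 gene lists, with members past the limma test in red. Black bars mark the median of each list and the dashed line the median of all tested genes (0.02), and glycolysis holds the most members past the test with 9 of 21.

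Transcripts of hepatocytes, which these cultures should lack, were higher at 24 h. The summed level of 32 marker genes was 92.5, 114 and 106 FPKM at 24 h, against 23.0, 23.2 and 53.1 FPKM at 0 h. Alb, the serum albumin gene, had 15.9, 24.9 and 19.7 FPKM at 24 h and 0, 0.0191 and 2.32 FPKM at 0 h, and the limma test gave an adjusted p of 0.061. In 29 of the 32 genes, of which 13 were too low to be tested, every 24 h library lay above every 0 h library. Among the 19 tested members this was so in 18, beside 5.94% of all tested genes. Apoc1, at 26.5, 22.6 and 30.2 FPKM at 24 h and 18.6, 18.6 and 40.1 FPKM at 0 h, is an exception that makes up much of the sum at 0 h.
The changed genes Apoa2, Apoa1, Apoc3, Apoh, Ttr, Serpina1b, Serpina1c and Ambp belong to this list, and they make up 8 of the 13 rises of 2-fold or more. Of the 19 members tested 15 were below 1 FPKM in all 0 h libraries and passed the filter through the 24 h group, so counts and medians of the list are given only as a description. Apoa2, a lipoprotein component, had 10.5, 9.68 and 13.03 FPKM at 24 h and 0, 0.188 and 0.984 FPKM at 0 h. The Serpina1 genes are near-identical copies, so their single values are uncertain. Ttr is also on a list of primitive endoderm genes, where it was the 1 higher of 8 tested, with 0 lower. Of those 8 genes 5 had a difference below 0, and the median was −0.06.

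Markers of brain cells did not move 1 way. The summed level of 13 astrocyte markers was 312, 263 and 329 FPKM at 24 h and 204, 217 and 396 FPKM at 0 h, so the groups overlapped through untreated 0 h replicate 3, and most of the sum came from Apoe and Vim, which stem cells also express. Gfap, the astrocyte filament gene, had 2.01, 1.79 and 2.02 FPKM at 24 h and 0.0902, 0.246 and 0.138 FPKM at 0 h, and Lcn2 had 2.14, 2.42 and 2.65 FPKM at 24 h and 0, 0.0206 and 0 FPKM at 0 h. Neither passed the limma test (adjusted p of 0.166 and 0.165), and of 9 tested astrocyte markers 1, Aldoc, was higher. In treated cells at 24 h Gfap had 2.16, 1.99 and 0.149 FPKM and Lcn2 had 1.97, 2.20 and 0 FPKM. This variation is part of the spread used in the test. Of 4 tested neuron markers 2 were lower, the neurofilament genes Nefl and Nefm, and none of 3 microglia and macrophage markers passed (medians −0.11 and −0.09). Over all listed members, tested or not, each 24 h library lay above each 0 h library in 6 of 13 astrocyte markers and below in 0. In 12 microglia and macrophage markers the counts were 6 above and 1 below, and in 10 neuron markers 0 above and 2 below. Of the tested members 4 astrocyte, 1 microglia and macrophage and 0 neuron markers lay above, beside 5.94% of all tested genes. Markers of the fibroblast feeder list summed to 12.4 to 14.01 FPKM at 24 h and 10.5 to 11.5 FPKM at 0 h.
Hepatocyte sums were also high in some treated libraries. Libraries of cells at the end of the 30 min exposure had marker sums of 93.0, 124 and 102 FPKM, 8 h replicates 1 and 2 had 114 and 101, and 6 h replicate 3 had 94.3, while all other treated libraries had 19.9 to 35.2. The part of the hepatocyte transcripts in the other changes was not tested.

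**Figure D4:**
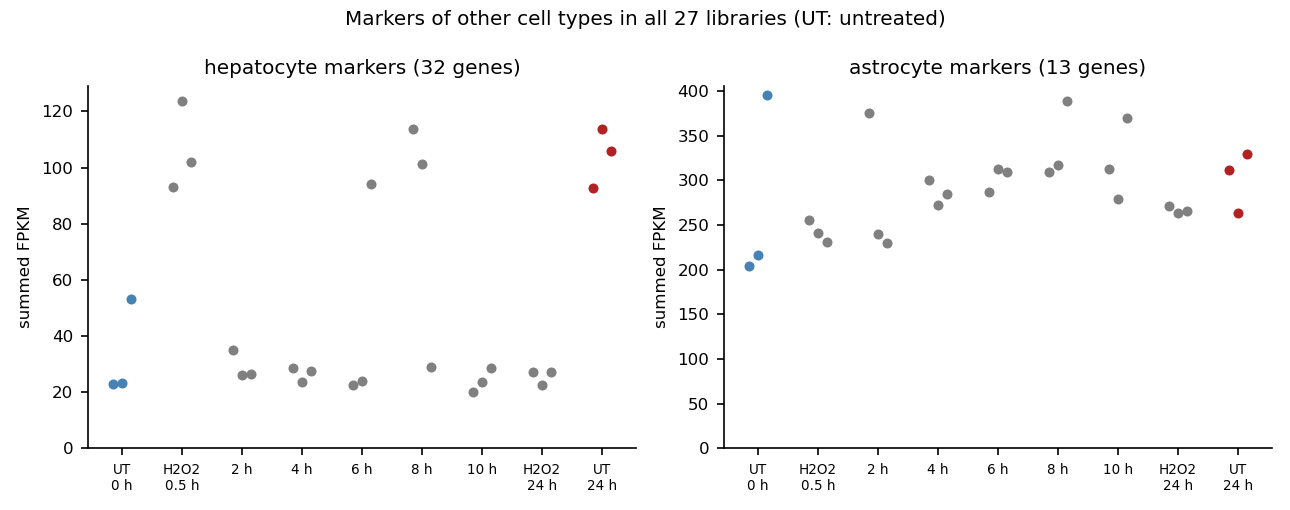
Summed FPKM of 32 hepatocyte markers and 13 astrocyte markers in each of the 27 libraries, in time order with untreated cells at 24 h (red) at the right end and untreated cells at 0 h (blue) at the left end. Hepatocyte sums reach 92.5 to 114 FPKM in untreated cells at 24 h, and similar sums occur in the 0.5 h libraries and in 3 others.

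Cells of the same age that had been exposed to H2O2 gave a second view of the changed genes. These comparisons share the untreated libraries with the one above, so the levels are set side by side and no overlap is counted. By limma 1460 genes differed between treated and untreated cells at 24 h (12.1%) and 1157 between treated cells at 24 h and untreated cells at 0 h (9.6%). Ldha averaged 232 ± 4.96 FPKM in treated cells at 24 h, 386 FPKM in untreated cells at 24 h and 275 FPKM in untreated cells at 0 h. Slc16a3 averaged 1.92 ± 0.264 FPKM in treated cells at 24 h, 7.03 in untreated cells at 24 h and 2.74 in untreated cells at 0 h. Ldha in treated cells was below both untreated groups (−0.73, limma adjusted p = 2.71e-08, and −0.24, limma adjusted p = 0.00818), while for Slc16a3 the difference from 0 h did not pass (−0.35, limma adjusted p = 0.0848).

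Pgk1, Pkm, Pgam1, Slc2a1, Aldoc and Bnip3 in treated cells at 24 h differed from the untreated 24 h cells by the limma test, while the difference from the 0 h cells did not pass. Bnip3, for example, averaged 7.18 ± 0.925 FPKM in treated cells at 24 h, 14.7 in untreated cells at 24 h and 7.18 in untreated cells at 0 h, and the difference of treated from 0 h cells was −0.01 (SE 0.12). Lefty2 averaged 10.9 ± 0.995 FPKM in treated cells at 24 h, 20.9 in untreated cells at 24 h and 7.74 in untreated cells at 0 h, and differed from both (−0.87, limma adjusted p = 1.17e-05, and 0.45, limma adjusted p = 0.00919). Ccn1 averaged 11.2 ± 1.03 FPKM in treated cells at 24 h, 5.74 in untreated cells at 24 h and 11.6 in untreated cells at 0 h. Fgfbp1 averaged 7.28 ± 1.24 FPKM in treated cells at 24 h, 3.13 in untreated cells at 24 h and 6.11 in untreated cells at 0 h.
A second group of genes had nearly the same level in treated and untreated cells at 24 h. Tgm1 averaged 28.0 ± 0.457 FPKM in treated cells at 24 h, 28.0 in untreated cells at 24 h and 37.8 in untreated cells at 0 h. Snhg1 averaged 33.1 ± 2.65 FPKM in treated cells at 24 h, 32.2 in untreated cells at 24 h and 46.1 in untreated cells at 0 h. Elf3, Fzd10, Grn, Glrx, Fbln1 and Bhlhe40 likewise lay near the untreated 24 h level, and each differed from the 0 h cells by the limma test. For Tgm1 the difference between treated and untreated cells at 24 h was 0.00 (SE 0.056), and for Elf3 −0.05 (SE 0.12).

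The time course of treated cells puts the untreated 24 h levels in context, with the medium of treated cells having been replaced by spent medium. Ldha averaged 273, 282, 293, 227, 176, 156 and 232 FPKM at 0.5, 2, 4, 6, 8, 10 and 24 h after H2O2, so no treated group reached the 386 FPKM of untreated cells at 24 h. Lefty2 averaged 7.02, 6.24, 3.72, 1.98, 7.05, 20.4 and 10.9 FPKM at these times, and its treated 10 h level was near the 20.9 FPKM of untreated cells at 24 h. Ccn1 averaged 9.07, 5.92, 11.1, 18.3, 12.7, 16.5 and 11.2 FPKM, and its 2 h level was near the 5.74 FPKM of untreated cells at 24 h.

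**Figure D5:**
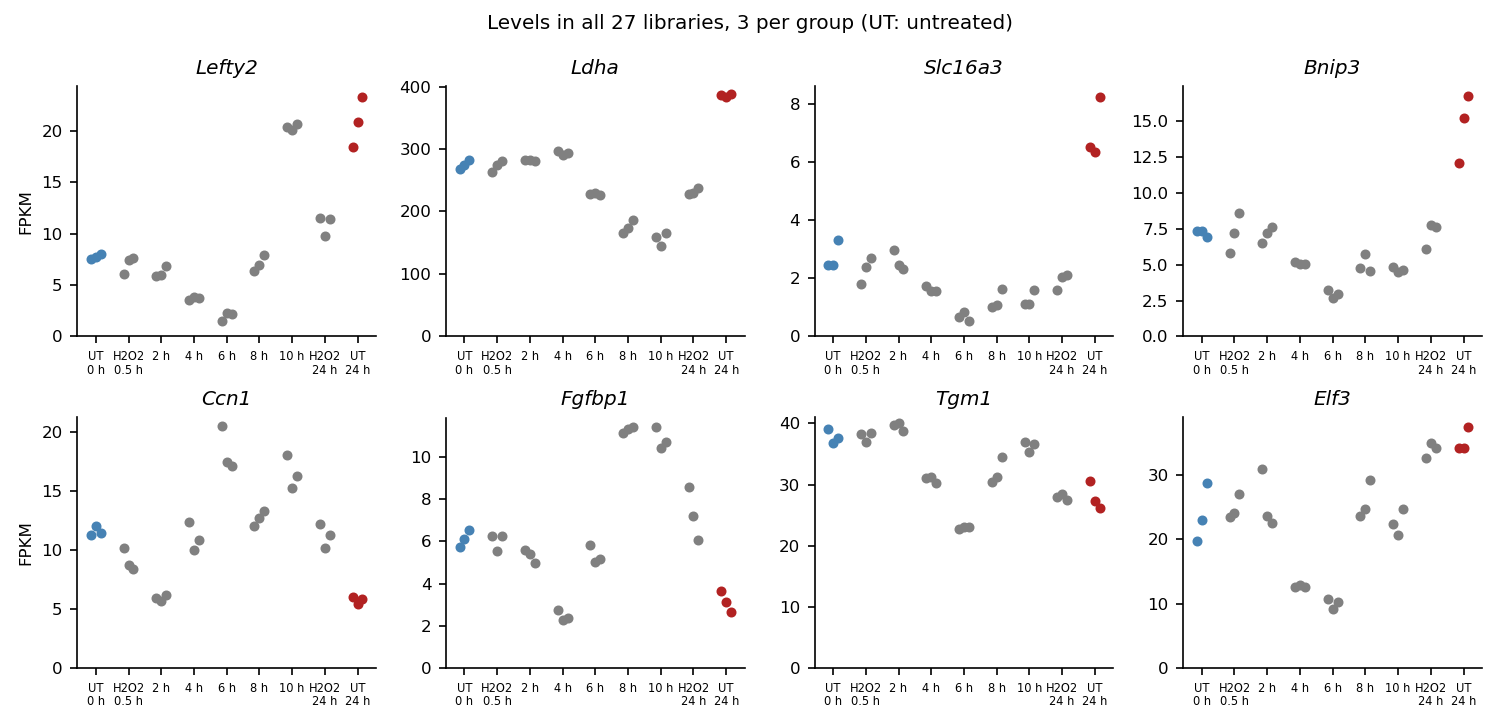
FPKM of 8 changed genes in each of the 27 libraries, with untreated cells at 0 h (blue) at the left end, cells after H2O2 (gray) in time order and untreated cells at 24 h (red) at the right end. Ldha, Slc16a3 and Bnip3 are highest in untreated cells at 24 h, while Tgm1 and Elf3 have similar levels in both 24 h groups.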

How the data were processed

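Poly(A) RNA of 27 libraries was sequenced, per the labels' protocols in paired-end mode after a stranded library preparation. Build mm10 and the tools HISAT2, StringTie, edgeR, cutadapt and FastQC are named in the submitters' processing notes, and the sources used here give no versions, annotation release or strand setting. FPKM per library is what the authors deposited; the deposited folds, ratios and p-values were not used. Tables were joined by Ensembl identifier, and 0 of 15 repeated columns differed.

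The 12056 genes that reached 1 FPKM in 3 or more of the 6 untreated libraries entered limma 3.58.1 (R 4.3.3) with a mean-variance trend on log2(FPKM + 1), 1 mean for each of 9 groups over all 27 libraries, and p-values adjusted by Benjamini-Hochberg over 12056 genes. The pipeline was run on simulated data with independent noise in each gene and library. Those data held no library-wide shift like that of untreated 0 h replicate 3, so such shifts were not covered. FPKM does not give absolute depth. Relative depth came from the steps between values below 0.05 FPKM. GC content, length and coordinates came from GENCODE M21.

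The members and the gene lists were chosen with earlier results of these data known, and lists are described by counts and medians, with no set test. For every list, counts of changed members stand beside 0.464% higher and 0.332% lower over all tested genes. The naming rule took up to 12 rises and 12 falls with at least 5 FPKM in the higher group, list members past the test and a panel; other list members, Gm49527, Commd5, Sec1, Gapdh, Gfap and Lcn2 were chosen after their values were seen. In all, 22 alternatives were run, among them other pseudocounts, filters, scalings, a replicate block and each library left out in turn.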

Additional observations from a re-analysis of the deposited data

How the results depend on the processing

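The counts of changed genes differed widely between fits. Against 96 changed genes (56 higher, 40 lower), the 6 untreated libraries alone gave 9 (9 and 0, with 5 of them shared), library weights 6124 (2505 and 3619), a GC and length correction 408 (163 and 245), and leaving out the 4 libraries that stood apart 4044 (1630 and 2414). A filter of 5 FPKM gave 63 (35 and 28), equal sums (TPM) 63 (32 and 31), median-of-ratios scaling 108 (45 and 63) and a minimum difference of 1 on log2(FPKM + 1) 12 (12 and 0). A pseudocount of 0.1 gave 91, no filter 109, a filter over all 27 libraries 96 and no trend 97. Leaving out 1 library gave 38 to 205 changed, 17 to 79 higher and 18 to 126 lower. Chosen after seeing the data were the GC and length correction with only the 6 libraries, which gave 15 (13 and 2), and those 6 without untreated 0 h replicate 3, which gave 39 (32 and 7). The cause of these moves was not tested.

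Deviations of same-numbered libraries from their group means correlated at −0.445, 0.70 and 0.507 for replicates 1, 2 and 3, and the labels do not tie a number to a time course, so pairing by number is not established. With the replicate block 97 genes changed (59 higher, 38 lower), 82 of them shared with the 96, and with the block in only the 6 libraries 2 (2 and 0).

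For the genes named in the text, 1032 of the values under alternatives kept direction and side of the threshold, 392 lost the call and 53 gained it. The 4 that turned sign, none of a called gene, were Gapdh (−0.19; single libraries left out, −0.52 to 0.33) and Pou5f1 (0.08; −0.045 to 0.29). For list medians 863 moved by less than the replicate spread and 83 by more. Absolute depth is unknown, so no counting error can be given.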
